A study of Mus musculus with 20 samples.

Results

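The comparison of wild-type multipotent progenitors (MPP) with wild-type long-term haematopoietic stem cells (LT-HSC) asked which transcripts separate the 2 populations when the aryl hydrocarbon receptor gene Ahr is intact. It used the 10 libraries labelled wild type of the 20 in the series, 5 per population, chosen by their labels alone, and all genes in the deposited count tables. The mice were C57BL/6, 8 to 12 weeks old and untreated, with no other allele or agent in the labels, and both populations were sorted from bone marrow by flow cytometry. The other 10 libraries came from Ahr knockout (Ahr-KO) mice of the same ages, again 5 LT-HSC and 5 MPP. They entered the check of the population difference in a second genotype and 1 alternative fit of all libraries. The sources used here do not give the surface markers of the sort. The extraction protocol in the labels speaks of dendritic cells with 3 samples per treatment group, which matches neither the cells nor the numbers here. Nothing in the labels says whether libraries of a group came from separate animals, so p-values measure the spread between these libraries, which may be partly technical.

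LT-HSC are the rare, mostly quiescent cells of the marrow that renew themselves and can rebuild all blood lineages for the life of an animal. MPP descend from them, keep many lineages open but renew little, divide more often, and begin to express genes of the lymphoid and myeloid branches. Loss of self-renewal factors, a rise of growth factor receptors such as FLT3 and entry into the cell cycle are the textbook changes of this step. In bulk RNA, a larger share of cells of a type and more RNA of a gene per cell cannot be told apart.

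LT-HSC libraries carry the numbers 1, 4, 5, 6 and 8 and MPP libraries the numbers 1 to 5, and values per library are given in that order as CPM, which are counts scaled to a common library size. A mean CPM is printed with its SD over 5 libraries, and a log2 difference, always MPP over LT-HSC, with its standard error. Totals ranged from 18105914 to 21622653 counts in LT-HSC and from 15496924 to 20375242 in MPP. WT LT-HSC 1 stood apart from the other libraries. Its log2 CPM correlated with those of its group at r = 0.895 to 0.905, while the other 4 LT-HSC libraries correlated with each other at 0.974 or more and the MPP libraries at 0.952 or more. Mitochondrially encoded RNA made up 0.386% of its counts, against 1.07 to 1.26% in the other LT-HSC libraries. Across genes, its deviation from the mean of the other LT-HSC libraries fell with transcript length (rho = -0.51, a description across genes, which are not independent replicates). The same value was 0.31 to 0.47 in the other LT-HSC libraries, -0.45 in WT MPP 5 and -0.01 to 0.26 in the other MPP libraries. For the other LT-HSC libraries the mean compared with includes WT LT-HSC 1, so their values are not independent of its trend. In 15 genes WT LT-HSC 1 held under 1 CPM where the other 4 LT-HSC libraries all held 20 CPM or more, and no other library had such a gene. Results are therefore given with it and, where a call changes or a list's count moves by over 1.5 times, without it.

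**Figure D1:**
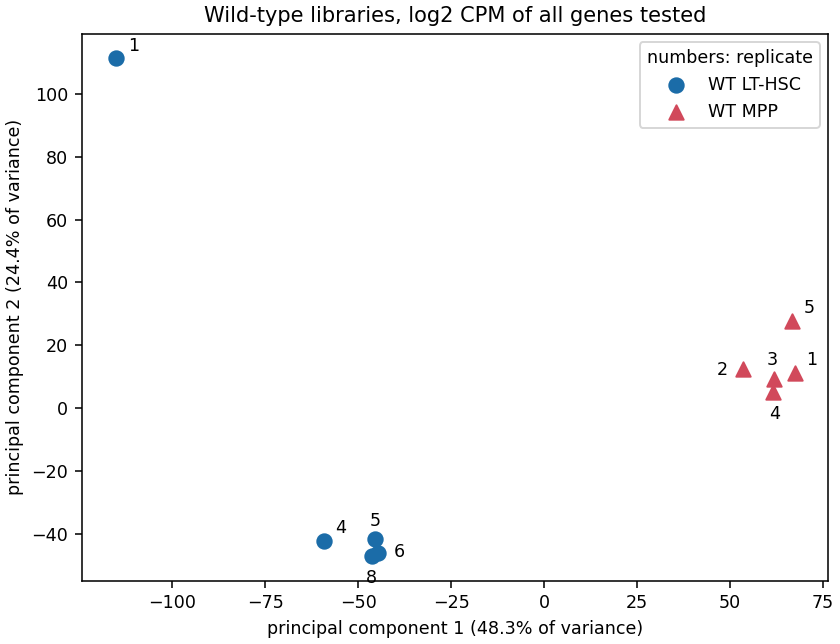
Principal components of log2 CPM over the genes tested, with axes labelled by their share of the variance, 1 point per library (circles LT-HSC, triangles MPP) and the replicate number beside it. MPP libraries lie to the right of all LT-HSC libraries on component 1 (48.3% of the variance), and WT LT-HSC 1 lies apart from every other library on component 2 (24.4%).

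The labels of the populations were checked against marker genes. Of the LT-HSC markers, Slamf1, Procr, Fgd5, Hoxb5, Mecom, Hlf and Ctnnal1 were all lower in MPP, and the MPP markers Flt3, Cd48 and Cd34 were all higher. Kit, the stem cell factor receptor, and Ly6a, which encodes Sca-1, are shared by both populations in the usual sort and were detected in every library. Kit was not called with all libraries (-0.74 log2 in MPP, adjusted p = 0.0902 by the quasi-likelihood test of edgeR), and was lower in MPP without WT LT-HSC 1 (-0.92, adjusted p = 0.00037, edgeR). Ly6a was not called (0.22, adjusted p = 0.5259, edgeR), with 54.2 to 76 CPM in LT-HSC and 56.8 to 120.0 CPM in MPP. No marker checked went against its label.

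Of 16067 genes tested, 2711 (16.9%) were called at an adjusted p under 0.05, with 1208 (7.52%) higher and 1503 (9.35%) lower in MPP. The median size of a called difference was 1.116 on the log2 scale, and 1514 called genes (9.42%) differed by an estimated 2-fold or more, 675 up (4.2%) and 839 down (5.22%). In 2723 genes (16.9%) the 2 groups did not overlap, with 1254 (7.8%) higher in every MPP library and 1469 (9.14%) lower in every one. Without WT LT-HSC 1, 5184 of 16452 genes were called (31.5%), 2567 higher (15.6%) and 2617 lower (15.9%), and 1978 (12%) differed by 2-fold or more, 922 up (5.6%) and 1056 down (6.42%). All 2688 genes called in both fits had the same sign, 2496 were called only without that library and 23 only with it. The common biological coefficient of variation fell from 32.6% to 24.0% when it was left out. Longer transcripts tended to be lower in MPP (rho = -0.14 over 11487 genes, and -0.31 without WT LT-HSC 1, both descriptions across genes), and the part of length in the results was not tested.

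**Figure D2:**
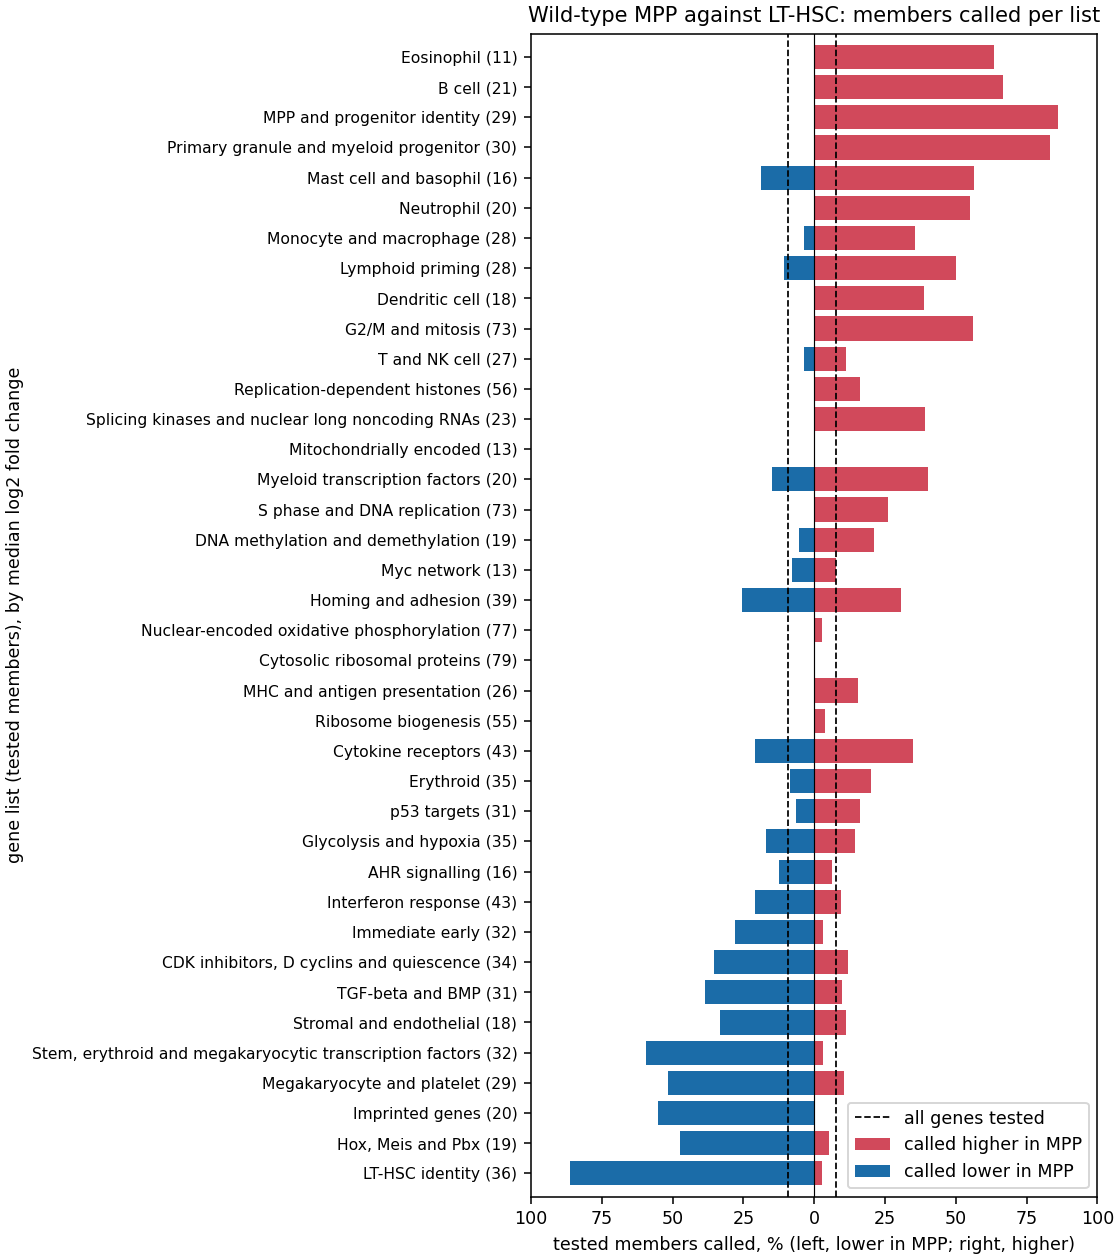
Share of the tested members of each gene list that was called higher (right) or lower (left) in MPP, in percent, with the number tested in brackets and lists ordered by median log2 fold change. The dashed lines mark 7.52% higher and 9.35% lower among all genes tested, and the LT-HSC identity list at the bottom and the progenitor and granule lists near the top reach farthest from them.

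Genes of LT-HSC identity were lower in MPP almost throughout. Of 36 tested members, 31 were lower and 1 was higher, against 9.35% and 7.52% of all genes, with a median log2 difference of -1.90 against -0.02 over all genes tested. In 29 of them every MPP library lay below every LT-HSC library. Summed over the list, LT-HSC libraries held 5257 to 5832 CPM and MPP libraries 1619 to 2002 CPM. The list was drawn up with earlier results of these data known, and its first members are used to define the population, so its direction is a description. Counts of later lists stand against the same shares of all genes, or against 15.9% lower and 15.6% higher where WT LT-HSC 1 is left out.

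Among the surface proteins, Slamf1 (chr1:171767127-171801184 in GRCm38), which encodes the sorting marker CD150, measured 21.7, 46.5, 44.6, 52 and 45.4 CPM in LT-HSC and 9.05, 7.79, 2.32, 6.11 and 8.71 CPM in MPP. The groups did not overlap, WT LT-HSC 1 held less than its group, and the log2 difference was -2.63 ± 0.35 (SE, adjusted p = 0.000444, edgeR). Procr (chr2:155751117-155755471), the endothelial protein C receptor, measured 59.5, 63.2, 61.8, 56.6 and 67.4 CPM in LT-HSC and 15, 20.6, 14.6, 17.3 and 16.8 CPM in MPP. Here all LT-HSC libraries agreed closely, WT LT-HSC 1 among them, and the difference was -1.87 ± 0.13 (adjusted p = 4.54e-06, edgeR). Esam, an adhesion molecule of endothelial junctions, and Tek, the angiopoietin receptor, averaged 157 ± 8.84 and 109.5 ± 22.2 CPM (SD, n = 5) in LT-HSC. In MPP they averaged 37.4 ± 6.99 and 22.3 ± 4.68 CPM, which gave log2 differences of -2.07 and -2.30.

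Fgd5 (chr6:91978878-92076004), a guanine nucleotide exchange factor used as a reporter of stem cells, measured 20.3, 100.2, 84.2, 77.2 and 92.8 CPM in LT-HSC and 7.12, 16.5, 16.7, 16.8 and 11.4 CPM in MPP. WT LT-HSC 1 held 20.3 CPM, close to the MPP libraries though above all of them, and the difference was -2.45 ± 0.40 with it and -2.66 without it. Vwf, von Willebrand factor of platelets and endothelium, measured 11.1, 135, 192, 156 and 202 CPM in LT-HSC and 54, 42.4, 43, 42.7 and 15 CPM in MPP. WT LT-HSC 1 held the lowest value of all 10 libraries, so the groups overlapped, and Vwf was not called (-1.82, adjusted p = 0.0559, edgeR) unless that library was left out (-2.10, adjusted p = 0.000219, edgeR). Hoxb5, a homeobox gene used to mark the most primitive cells, stood at 5.79, 8.2, 5.37, 5.43 and 7.22 CPM in LT-HSC and 1.2, 0.4931, 0.113, 0.821 and 0.218 CPM in MPP. These MPP values rest on few reads. Pdzk1ip1, a small membrane protein, averaged 177 ± 18.3 CPM in LT-HSC and 32 ± 2.97 CPM in MPP, and with an adjusted p of 7.87e-07 (edgeR) it had the smallest value of the comparison, as did Flt3 and others. Mmrn1, a multimerin stored in platelet granules, fell from 657 ± 84.5 to 74.6 ± 27.8 CPM. Cd27, a tumour necrosis factor receptor family member of progenitors and lymphocytes, was the 1 member called higher (0.51 ± 0.13), and its groups overlapped. Vwf, Ly6a, Itga6 and Bmpr1a were the 4 members not called.

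**Figure D3:**
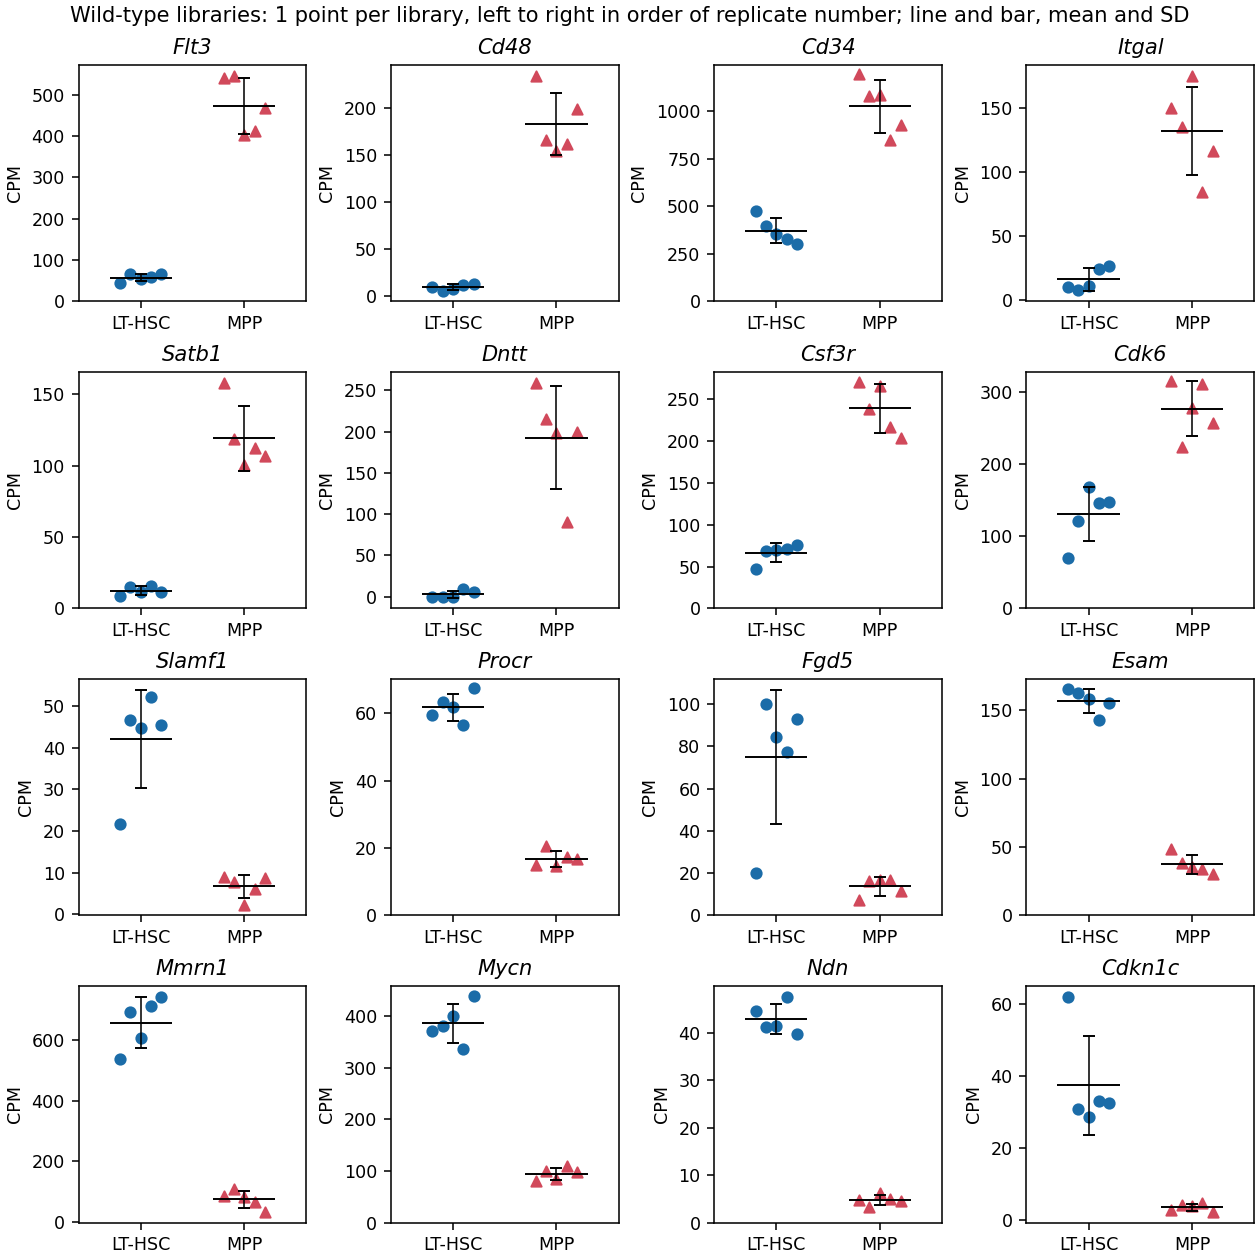
CPM of 16 genes in the 10 libraries, 1 panel per gene with its own linear axis that includes 0, points in the order of replicate number within a population, the horizontal line at the mean and the bar at ± SD (n = 5). In the upper 8 panels every MPP library lies above every LT-HSC library, and in the lower 8 panels every one lies below.

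Called genes were also ranked by log2 difference if they averaged 5 CPM or more over all 10 libraries. The lowest differences belonged to genes nearly silent in MPP. LT-HSC values alone can meet that limit and the ranking favours genes near 0 in MPP, so their near silence is partly built into the choice. Efna1, which encodes a membrane-bound ligand of Eph receptors, measured 15.3, 11.3, 8.08, 8.2 and 13.2 CPM in LT-HSC and 0, 0.0493, 0.339, 0 and 0 CPM in MPP, where 3 of 5 libraries were at 0. Sfrp1, a secreted antagonist of Wnt signalling, measured 15.6, 10.4, 8.95, 11.2 and 15.6 CPM in LT-HSC and 0.2, 0.0493, 0.509, 0.0513 and 0.218 CPM in MPP. Ocln, the tight junction protein occludin, and Sult1a1, a sulfotransferase, averaged 14.9 ± 2.57 and 31.2 ± 7.04 CPM in LT-HSC and at most 0.708 and 1.74 CPM in an MPP library. In all 4 genes the groups were far apart, and folds are left out where MPP libraries are at or near 0. Plk2, a stress-responsive relative of the mitotic polo kinase and a target of p53, averaged 15.9 ± 0.744 CPM in LT-HSC and 0.916 ± 0.538 CPM in MPP. Rarb, a retinoic acid receptor, Clec1a, a C-type lectin, and Nrk, a kinase, differed by -4.18, -4.14 and -4.13 log2. Evc2, a component of the cilium base, measured 1.2, 20.9, 19.3, 27 and 19.4 CPM in LT-HSC and 1.46, 0.69, 1.92, 0 and 0 CPM in MPP, so its call rested on 4 of 5 LT-HSC libraries and the groups overlapped through WT LT-HSC 1.

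Genes of MPP and progenitor identity moved the other way. Of 29 tested members, 25 were higher in MPP and none was lower, with a median log2 difference of 3.17. The counts were 27 without WT LT-HSC 1 and 23 without WT MPP 3. Summed over the list, MPP libraries held 10457 to 14400 CPM and LT-HSC libraries 1536 to 2764 CPM.

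Flt3 (chr5:147330741-147400489), the receptor tyrosine kinase that drives lymphoid and dendritic development, measured 43.6, 66, 54, 58.4 and 65 CPM in LT-HSC and 539, 546, 403, 412 and 467 CPM in MPP. The lowest MPP value was far above the highest LT-HSC value, and the log2 difference was 3.04 ± 0.15 (adjusted p = 7.87e-07, edgeR). Cd48 (chr1:171682009-171705258), the SLAM family marker whose absence defines LT-HSC in many sorts, measured 10.1, 5.87, 7.11, 12.2 and 13.2 CPM in LT-HSC and 234, 166, 154, 161 and 199 CPM in MPP. Its difference was 4.24 ± 0.25 (adjusted p = 2.38e-06, edgeR), with no overlap. Cd34, a sialomucin gained as mouse stem cells leave the long-term state, measured 474, 396, 356, 328 and 304 CPM in LT-HSC and 1199, 1080.5, 1087, 849 and 927 CPM in MPP. LT-HSC thus held a clear level of Cd34, and the difference was the smallest of the 3 markers at 1.47 ± 0.14. Cd53, a tetraspanin of leukocytes, measured 14.4, 17, 18.8, 20.8 and 24 CPM in LT-HSC and 224, 182, 149, 167 and 192 CPM in MPP, again without overlap (3.27 ± 0.17).

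The lymphoid priming list held both directions. Of 28 tested members 14 were higher in MPP, 3 were lower and 11 were not called, with a median of 0.99. Satb1 (chr17:51736187-51833290), a chromatin organizer of early lymphoid progenitors, measured 8.71, 14.9, 11.6, 15.8 and 11.3 CPM in LT-HSC and 158, 118, 100.2, 112 and 107 CPM in MPP (3.26 ± 0.20). The groups did not overlap in Satb1. Dntt, the terminal transferase of antigen receptor rearrangement, was at 0.0479, 0, 0.102, 8.75 and 5.89 CPM in LT-HSC and 259, 215, 198, 90.1 and 199.5 CPM in MPP, so it was near 0 in 3 LT-HSC libraries and low in WT LT-HSC 6 and 8. Lck, the tyrosine kinase of T cell receptor signalling, rose by 1.15 ± 0.20 log2. The 3 lower members were Gata3 (-1.22 ± 0.17), a transcription factor of T cells that stem cells also express, Ltb (-1.58 ± 0.22), which encodes lymphotoxin beta, and Foxo1 (-0.86 ± 0.18), a forkhead factor restrained by growth factor signals.

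Myeloid progenitor genes rose as a group. Of 30 tested members of the primary granule and myeloid progenitor list, 25 were higher in MPP and none was lower, with a median of 2.82. Csf3r, the receptor for granulocyte colony-stimulating factor, measured 46.7, 68.8, 69.6, 70.7 and 76.1 CPM in LT-HSC and 271, 239, 266, 217 and 204 CPM in MPP (1.85 ± 0.15). Plac8, a small cysteine-rich protein of myeloid cells, measured 85.7, 36.9, 45.7, 68 and 55.1 CPM in LT-HSC and 379, 472, 514, 572 and 688 CPM in MPP. Serpinb1a, an inhibitor of neutrophil serine proteases, measured 138, 126, 109, 126 and 112 CPM in LT-HSC and 413, 398, 339, 427 and 378 CPM in MPP. In these 3 genes all MPP libraries were higher than all LT-HSC libraries. Mpo, the myeloperoxidase of primary granules, was named after its values were seen because it shows how the LT-HSC libraries differed among themselves. It measured 6.13, 146, 119, 891 and 368 CPM in LT-HSC and 6128, 4306, 3826, 5657 and 4582 CPM in MPP. WT LT-HSC 6 and 8 held the most in their group, and Mpo rose by 4.0 ± 0.91 log2 (adjusted p = 0.011, edgeR), or by 4.99 without WT LT-HSC 6. Without WT LT-HSC 1, 6 and 8 together, 25 of the 30 members were still called higher, with a median of 3.12, a setting chosen after the values were seen.

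Transcription factors split along the same line. Of 32 tested stem, erythroid and megakaryocytic factors 19 were lower in MPP and 1 was higher (median -0.76), and without WT LT-HSC 1 24 were lower and 3 higher. Mycn (chr12:12936093-12941914), a MYC family member expressed in quiescent stem cells, measured 372, 381, 401, 336 and 439.6 CPM in LT-HSC and 80.6, 99.7, 83.4, 110.0 and 97.3 CPM in MPP. The groups did not overlap and the log2 difference was -2.03 ± 0.12 (adjusted p = 2.03e-06, edgeR). Gata2, a zinc finger factor required for stem cells, averaged 486 ± 48.5 CPM in LT-HSC and 184 ± 24 CPM in MPP (-1.40). Tcf15, a helix-loop-helix factor of quiescent stem cells, measured 35.3, 18.3, 17.6, 20.6 and 20.2 CPM in LT-HSC and 0.732, 2.56, 1.58, 2.62 and 2.34 CPM in MPP, and WT LT-HSC 1 held the most. Mecom and Hlf, named after their values were seen, encode stem cell factors and differed by -2.01 ± 0.23 and -0.74 ± 0.14 log2. Id2, an inhibitor of helix-loop-helix factors, was the 1 member called higher (1.43 ± 0.27).

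Of 19 tested genes of the Hox, Meis and Pbx families 9 were lower, 1 was higher and 9 were not called (median -0.95). Meis1, a cofactor of HOX proteins, averaged 468 ± 25.7 CPM in LT-HSC and 241 ± 9.57 CPM in MPP. Meis1 fell without overlap, by 0.95 on the log2 scale. The family member Pbx4 rose by 0.99 ± 0.17. Among the 20 tested myeloid transcription factors 8 were higher and 3 lower (median 0.37). Cebpa, the driver of granulocyte commitment, measured 0.622, 0.911, 3.48, 2.12 and 2.76 CPM in LT-HSC and 15.3, 21.4, 28.6, 28.1 and 26 CPM in MPP. Gfi1, a repressor needed for neutrophils and lymphoid cells, measured 8.95, 13.5, 14.4, 14.9 and 18.5 CPM in LT-HSC and 76.4, 50.5, 36.4, 59.8 and 65.7 CPM in MPP. Cebpd, another C/EBP factor, rose by 2.19 ± 0.33, and Nr4a1, an orphan nuclear receptor of the immediate early response, fell by 1.0 on the log2 scale.

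Genes of G2 and mitosis were higher in MPP, and the count depended on WT LT-HSC 1. Of 73 tested members 41 were higher, none was lower and 32 were not called, with a median of 0.82. Without that library 69 of the 73 were higher and none was lower, with a median of 0.97. Summed over the list, MPP libraries held 9784 to 13535 CPM. The other 4 LT-HSC libraries held 5716 to 6560 CPM and WT LT-HSC 1 held 9131 CPM, so it lay below every MPP library but near them, while its LT-HSC identity sum of 5257 CPM lay near its own group.

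**Figure D4:**
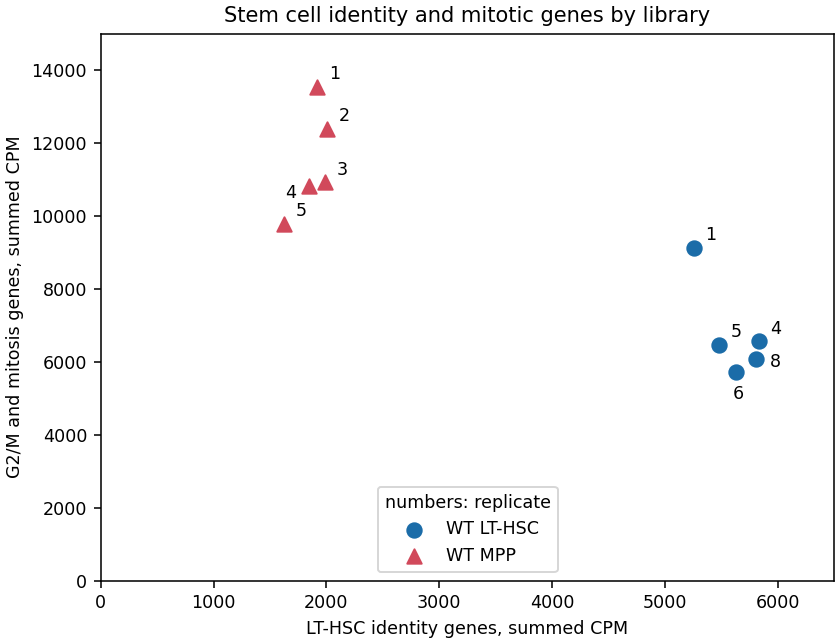
Summed CPM of the 36 tested LT-HSC identity genes (horizontal axis) and of the 73 tested G2/M and mitosis genes (vertical axis) in each of the 10 libraries, with the replicate number beside each point. WT LT-HSC 1 lies with its group on the horizontal axis, at 5257 CPM, and between the groups on the vertical axis, at 9131 CPM.

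Promoters of 4 of these genes are printed to show the elements counted over the promoters of this list. Each run holds 150 bases just before the start site in RefSeq (GRCm38.p6), written 5′ to 3′ on the gene's strand. Capitals mark CHR-type elements (TTTGAA or TTTAAA), boxes of the letters CCAAT, and E2F-type elements (TTTNNCGC), each searched on both strands, so that a capital run may be the reverse complement of these letters.
Cdk1 (chr10:69352913-69353062, minus strand): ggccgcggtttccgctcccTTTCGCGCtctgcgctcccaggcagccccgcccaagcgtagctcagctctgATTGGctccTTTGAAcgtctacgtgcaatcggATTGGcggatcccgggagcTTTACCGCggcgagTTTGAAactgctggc
Plk1 (chr7:122159285-122159434, plus strand): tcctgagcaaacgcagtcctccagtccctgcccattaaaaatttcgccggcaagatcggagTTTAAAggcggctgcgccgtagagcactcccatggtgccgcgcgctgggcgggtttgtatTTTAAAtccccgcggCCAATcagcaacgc
Ncapg (chr5:45669775-45669924, plus strand): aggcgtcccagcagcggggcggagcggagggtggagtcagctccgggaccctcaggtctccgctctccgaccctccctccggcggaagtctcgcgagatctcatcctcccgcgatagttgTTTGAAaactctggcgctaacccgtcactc
Mki67 (chr7:135716380-135716529, minus strand): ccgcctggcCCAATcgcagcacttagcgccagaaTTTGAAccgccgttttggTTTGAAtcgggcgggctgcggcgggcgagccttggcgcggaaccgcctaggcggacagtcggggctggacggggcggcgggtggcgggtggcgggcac
The stretch of Cdk1 holds 2 matches of each kind of element, that of Plk1 2 CHR-type matches and 1 CCAAT box, that of Ncapg 1 CHR-type match and that of Mki67 2 CHR-type matches and 1 CCAAT box.

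The elements were then counted over the 250 bases before each start. Promoters of 61 list members were matched by symbol, with 67 windows. A CHR-type match was found in 46.3% of them, against 25.2% of all 32851 windows and 18.0% of the 12926 windows of genes tested. A CCAAT box was found in 74.6%, against 33.9% of all windows and 35.5% of those of genes tested. Both were found in 41.8%, against 8.78% and 6.68%. An E2F-type match was found in 14.9% of windows of the G2/M list, in 20% of the 65 windows of the S phase list and in 13.8% of the 29 windows of the LT-HSC identity list, against 4.28% of all windows and 6.68% of those of genes tested. Windows of all genes called higher in MPP held a CHR-type match in 22.9%, a CCAAT box in 38.8%, both in 9.88% and an E2F-type match in 6.32%. For genes called lower these were 18.8%, 33.0%, 6.35% and 3.52%. The shares of the G2/M list thus describe that list and not the called genes as a whole. A match is a string of letters and not evidence of binding, and windows of neighbouring or alternative starts can overlap.

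Cdk1 (chr10:69335146-69352938), the kinase that drives entry into mitosis, measured 139, 89.9, 91.7, 80.6 and 90.2 CPM in LT-HSC and 195, 179, 167, 182 and 174 CPM in MPP. The groups did not overlap, WT LT-HSC 1 was the highest of its group, and the log2 difference was 0.87 ± 0.14 (adjusted p = 0.00168, edgeR) with it and 1.05 without it. Ncapg (chr5:45669919-45700546), a subunit of the condensin complex that compacts chromosomes, measured 51.3, 54.8, 54, 44 and 50.7 CPM in LT-HSC and 114, 99.6, 94.1, 106 and 99.8 CPM in MPP. Here WT LT-HSC 1 did not differ from its group and the difference was 1.01 ± 0.10 (adjusted p = 7.8e-05, edgeR). Mki67 (chr7:135689784-135716361), the proliferation antigen, measured 79.4, 161, 178, 159 and 159 CPM in LT-HSC and 327, 287, 252, 257 and 189.7 CPM in MPP. In this gene WT LT-HSC 1 was the lowest library, opposite to Cdk1, and the difference was 0.83 ± 0.21 (adjusted p = 0.0191, edgeR).

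Plk1 (chr7:122159439-122169873), the polo-like kinase of mitotic entry, measured 147, 56, 57.9, 48.3 and 49.8 CPM in LT-HSC and 179, 138, 116, 107 and 104 CPM in MPP. WT LT-HSC 1 lay within the MPP range while the other 4 lay far below it. Plk1 was not called with all libraries (0.84, adjusted p = 0.0959, edgeR) and was called without that library (1.30, adjusted p = 9.4e-05, edgeR). Aurka, the Aurora A kinase of the centrosome named in the title of the series, measured 157, 58.2, 58.5, 50.9 and 54.9 CPM in LT-HSC and 134, 143, 112, 117 and 119 CPM in MPP. The same library exceeded every MPP library, and Aurka was not called with it (0.72, adjusted p = 0.127, edgeR) but was called without it (1.19, adjusted p = 5.76e-06, edgeR). Ccnb1, the cyclin partner of CDK1, measured 339.6, 119, 123, 103 and 104 CPM in LT-HSC and 427, 312, 248, 257 and 246 CPM in MPP. WT LT-HSC 1 lay within the MPP range, and Ccnb1 was not called with it but was called without it, at 0.92 (adjusted p = 0.0905, edgeR) with and 1.43 (adjusted p = 5.83e-05, edgeR) without it. Incenp and Mad2l1, of the chromosomal passenger complex and the spindle checkpoint, rose by 0.86 ± 0.10 and 0.82 ± 0.10 with all libraries.

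Of 73 tested S phase and DNA replication genes 19 were higher, none was lower and 54 were not called (median 0.31), and without WT LT-HSC 1 49 were higher and 1 was lower (median 0.45). Their summed level in WT LT-HSC 1 was 11451 CPM, within the MPP range of 10586 to 12340 CPM and above the 8471 to 9378 CPM of the other LT-HSC libraries. Mcm10, which helps to activate replication origins, measured 46.4, 43.6, 45.1, 47.4 and 54 CPM in LT-HSC and 88.5, 104, 103, 84.8 and 73 CPM in MPP. Cdc7, the kinase that fires origins, measured 45.4, 36.6, 39.6, 46.5 and 51.2 CPM in LT-HSC and 115, 82.7, 63.9, 86.6 and 88 CPM in MPP, also without overlap. Rad51ap1, a gene of homologous recombination, rose by 1.02 ± 0.14. Of 56 tested replication-dependent histone genes 9 were higher and none was lower, and 27 were higher without WT LT-HSC 1. Hist1h1b, a linker histone, rose by 1.37 ± 0.28 and Hist1h2ae by 0.73 ± 0.16. Replication-dependent histone messages mostly lack a poly(A) tail, so their level after poly(A) selection is not their full level.

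Regulators of quiescence and of the G1 phase were mixed. Of 34 tested members 12 were lower, 4 were higher and 18 were not called (median -0.35), and without WT LT-HSC 1 16 were lower and 8 higher. Cdkn1c (chr7:143458339-143461050), the inhibitor p57 that holds stem cells out of the cycle, measured 61.8, 30.9, 28.6, 33 and 32.4 CPM in LT-HSC and 2.79, 4.14, 3.9, 4.77 and 2.29 CPM in MPP. WT LT-HSC 1, in which Ccnb1 and Aurka were high, also held the most Cdkn1c, and the difference was -3.38 ± 0.28 (adjusted p = 2.24e-05, edgeR). Ndn (chr7:62346569-62350262), a growth suppressor of the MAGE family, measured 44.5, 41.2, 41.4, 47.5 and 39.6 CPM in LT-HSC and 4.66, 3.21, 6.22, 4.98 and 4.57 CPM in MPP (-3.18 ± 0.18). Ccnd2, cyclin D2, measured 557, 534, 522, 537 and 519.6 CPM in LT-HSC and 242, 252, 299, 257 and 296 CPM in MPP (-0.99 ± 0.09). Its partner kinase gene Cdk6 went the other way, with 70.3, 121, 168, 146 and 148 CPM in LT-HSC and 315, 223, 277, 311 and 257 CPM in MPP (1.08 ± 0.21). Cdkn1a, the inhibitor p21, measured 3.21, 2.87, 1.84, 3.42 and 2.99 CPM in LT-HSC and 13.4, 9.42, 9.1, 7.34 and 13.4 CPM in MPP and so was higher in MPP, unlike Cdkn1c. Btg2, an antiproliferative gene, rose by 1.15 ± 0.18, and it is also the 1 member of 32 tested immediate early genes that rose, while 9 of these fell (2 and 9 without WT LT-HSC 1). Egr1, an immediate early zinc finger factor of stem cell quiescence, measured 90.2, 71, 69.9, 73.6 and 234 CPM in LT-HSC, with WT LT-HSC 8 far above the rest, and 15.3, 13.6, 6.05, 9.54 and 16.3 CPM in MPP.

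Imprinted genes, of which several restrain growth, were lower in MPP in 11 of 20 tested members and higher in none (median -0.94), and in 15 of 22 without WT LT-HSC 1. Beside Cdkn1c and Ndn, both of which stand on the quiescence list too, Grb10, an adaptor that dampens growth factor receptors, measured 98.5, 199, 216, 209.6 and 219 CPM in LT-HSC and 24.8, 27.5, 29.1, 30.6 and 29.5 CPM in MPP. WT LT-HSC 1 was lowest in its group but above every MPP library (-2.73 ± 0.21). Dlk1, named after its values were seen, was low throughout, at 3 to 3.83 CPM in LT-HSC and 0.327 to 1.58 CPM in MPP. Genes of TGF-beta and BMP signalling, which holds stem cells in quiescence, were lower in 12 of 31 tested members and higher in 3 (median -0.47). Eng, the co-receptor endoglin, averaged 206 ± 8.83 CPM in LT-HSC and 109.6 ± 12.7 CPM in MPP. Acvr2a, an activin receptor, fell by 1.08. Tgfbr3, the co-receptor betaglycan, measured 13, 164, 149, 173 and 194 CPM in LT-HSC and 25.7, 30.4, 17.6, 20.8 and 25.5 CPM in MPP, and WT LT-HSC 1 was the lowest of all libraries. Tgif1, a corepressor of SMAD factors, rose by 0.40 ± 0.12 (adjusted p = 0.0352, edgeR), a call lost without any 1 of WT LT-HSC 5, 6 and 8 and WT MPP 1 and 3 (adjusted p at most 0.0544, edgeR), and Id2 and Acvrl1 were the other members called higher.

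Of 43 tested cytokine receptors 15 were higher and 9 were lower (median 0.02). Beside Flt3 and Csf3r, Il1r1, the receptor for interleukin 1, rose from 15.5 ± 5.88 to 70.4 ± 12.3 CPM. Beside Tek, Il27ra, the receptor for interleukin 27, fell from 77.3 ± 1.78 to 35.4 ± 9.27 CPM. Of 39 tested homing and adhesion genes 12 were higher and 10 were lower (median 0.13), and 14 and 16 without WT LT-HSC 1. Itgal, an integrin chain of leukocytes, measured 9.96, 7.69, 11, 24.2 and 26.6 CPM in LT-HSC and 149.5, 135, 175, 84 and 116 CPM in MPP. Junctional adhesion genes went the other way, with F11r at 169.8, 94.5, 91.7, 88.3 and 89.7 CPM in LT-HSC and 27.8, 31.3, 28.2, 30.6 and 26.8 CPM in MPP. Jam3, of the same family, fell by 2.28 on the log2 scale. Itgal was thus among the gains, and Esam and both junctional genes were among the losses.

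Few members of the ribosome and energy lists were called with all libraries, and more were called without WT LT-HSC 1 or by limma voom. Both settings also called more over all genes. Limma voom called 2773 of 16067 genes higher and 3200 lower, against 1208 and 1503 by edgeR with all libraries. None of 79 tested cytosolic ribosomal protein genes was called by edgeR, with 3 at an unadjusted p under 0.05, and 3 were called higher without WT LT-HSC 1. DESeq2 called none of them, limma voom called 4 higher and 1 lower, and edgeR called Rpsa without WT MPP 2 (0.42 with all libraries, adjusted p = 0.0342 without that one). Their share of counts averaged 2.62 ± 0.231% in LT-HSC and 2.64 ± 0.529% in MPP (SD, n = 5 each, exact two-sided permutation p = 0.944, adjusted over 3 shares 0.944). Of 55 ribosome biogenesis genes 2 were higher, Npm1 (0.39 ± 0.10), the nucleolar chaperone, and Gnl3 (0.42 ± 0.12), the nucleolar protein nucleostemin. Without WT LT-HSC 1 11 were higher and 2 lower, and limma voom called 13 higher and 2 lower. Gnl3 was not called without WT LT-HSC 4 or WT MPP 5 (adjusted p = 0.0529 and 0.0564, edgeR). Of 77 nuclear-encoded genes of oxidative phosphorylation 2 were higher, among them Ndufa4 (0.80 ± 0.20), none was lower, and 41 were higher by limma voom. Without WT LT-HSC 1 26 of the 77 were higher, against 15.6% of all genes in that fit. In this list that library's summed level was 15223 CPM against 10408 to 11021 CPM in the rest of its group. None of 13 mitochondrially encoded genes was called by edgeR, with or without that library, and 1 had an unadjusted p under 0.05 in each fit. Without WT MPP 2 mt-Nd1 was called (0.74, adjusted p = 0.0337, edgeR). DESeq2 and limma voom called none of them either. The mitochondrial share averaged 1.01 ± 0.355% in LT-HSC and 1.24 ± 0.329% in MPP (SD, n = 5 each, exact two-sided permutation p = 0.341, adjusted 0.512). Of 35 glycolysis and hypoxia genes 5 were higher and 6 were lower. Without WT LT-HSC 1, 8 and 10 of 36 were, against 15.6% and 15.9% of all genes in that fit. Hk3, the myeloid hexokinase, measured 25.8, 31.7, 34.5, 36.9 and 38.2 CPM in LT-HSC and 289, 209, 202, 206 and 202 CPM in MPP (2.73 ± 0.15). The glucose transporter gene Slc2a3 measured 222, 254, 212, 210.0 and 219.7 CPM in LT-HSC and 114, 124, 99, 93.8 and 86.9 CPM in MPP (-1.11 ± 0.12).

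Of 43 tested interferon response genes 9 were lower and 4 higher (median -0.19). Ifitm1, an interferon-induced membrane protein that is also on the LT-HSC list, measured 379, 373, 309.6, 302 and 369 CPM in LT-HSC and 139.7, 142, 138, 129.8 and 139.9 CPM in MPP. Gbp7 and Ifih1, a GTPase and an RNA sensor, fell by 0.94 and 1.03, and Oas2, which makes the activator of an antiviral RNase, rose by 1.45 ± 0.28. Of 26 antigen presentation genes 4 were higher, H2-Ob, Cd74, Tap2 and H2-Eb1, the last named after its values were seen, and without WT LT-HSC 1 10 were higher and 1 lower. H2-Ob, a chain of the class II chaperone DO, measured 27.6, 17.5, 20.04, 14 and 18 CPM in LT-HSC and 108, 90.7, 96.7, 71.5 and 81.2 CPM in MPP. Of 16 tested genes of AHR signalling 1 was higher and 2 lower, Lpcat2, Ahr and Nqo1, against 7.52% and 9.35% of all genes. Without WT LT-HSC 1, 5 were lower, against 15.9% of all genes in that fit. Ahr itself (chr12:35497974-35535038) measured 22.3, 28.5, 20.9, 24.7 and 36.9 CPM in LT-HSC and 5.65, 14.1, 12.2, 10.1 and 6.37 CPM in MPP, and so was lower in every MPP library (-1.46 ± 0.27, adjusted p = 0.00356, edgeR). Nqo1, a quinone reductase and AHR target, fell by 1.06 on the log2 scale.

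Genes of mature and other cells were checked because a sort can carry such cells along, and progenitors can also express these genes at a low level. Of 21 tested B cell genes 14 were higher in MPP and none was lower (median 3.32). Their sum ran from 235 to 992 CPM in LT-HSC and from 6626 to 34009 CPM in MPP, with WT MPP 3 at the top. Jchain, the joining chain of secreted antibodies, measured 0.191, 0.501, 47.7, 0.217 and 1.43 CPM in LT-HSC and 707, 992, 4042, 668 and 835 CPM in MPP. Mzb1 and Pou2af1, of antibody-secreting and B cells, were at 1.07 and 1.48 CPM or less in LT-HSC, and at 13.8, 20.3, 65.3, 14.4 and 27.1 CPM and 20.4, 15.2, 63.8, 17.4 and 24 CPM in MPP. Immunoglobulin genes took 0.00125 to 0.137% of counts in LT-HSC and 1.27 to 6.13% in MPP (exact two-sided permutation p = 0.00794, the smallest that 5 against 5 allow, adjusted 0.0238). The part of B cell RNA in the lymphoid results was not tested.

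Of 11 tested eosinophil genes 7 were higher (median 4.36), and their sum was 0.622, 5.46, 6.34, 321 and 165 CPM in the LT-HSC libraries and 788 to 1982 CPM in MPP. Prg2, the major basic protein of eosinophil granules, named after its values were seen, measured 0.383, 0.364, 0.818, 224 and 133 CPM in LT-HSC and 759, 1273, 1276, 574 and 747 CPM in MPP, so WT LT-HSC 6 and 8 held what the other 3 lacked. Prg2 was not among the 7 called, with a log2 difference of 3.69. It was not called without WT LT-HSC 6 either (4.84, adjusted p = 0.0854, edgeR). Il5ra, the receptor of interleukin 5, and Siglecf, a sialic acid lectin, were at 0.238 and 1.68 CPM or less in LT-HSC and at 5.52 to 10.5 and 13.7 to 21 CPM in MPP. Of 20 tested neutrophil genes 11 were higher and none lower (median 2.07), with sums of 766 to 1033 CPM in LT-HSC and 1416 to 1996 CPM in MPP. These sums include Csf3r, which the primary granule list also holds, at 46.7 to 76.1 CPM in LT-HSC and 204 to 271 CPM in MPP. Ltf, the lactoferrin of secondary granules, measured 0.144, 1.05, 0.767, 0.326 and 0.475 CPM in LT-HSC and 57.4, 30.5, 53.3, 74.3 and 41.2 CPM in MPP. Camp, the cathelicidin of the same granules, measured 0.718, 0.364, 1.28, 2.77 and 0.665 CPM in LT-HSC and 35.3, 45.2, 51.6, 64.3 and 54.8 CPM in MPP. The part of mature granulocyte RNA in the myeloid results was not tested.

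Other lineages gave smaller or mixed counts. Of 28 monocyte and macrophage genes 10 were higher and 1, Apoe, was lower (16 and 1 without WT LT-HSC 1), with sums of 1176 to 1610 CPM in LT-HSC and 1274 to 1848 CPM in MPP. Apoe, the lipid carrier, measured 922, 502, 527, 525 and 559 CPM in LT-HSC and 198, 177, 178, 203 and 197 CPM in MPP. Of 18 dendritic cell genes 7 were higher, with sums of 470 to 680 and 960 to 1558 CPM. These sums include the MPP marker Flt3, at 43.6 to 66 CPM in LT-HSC and 403 to 546 CPM in MPP. Of 16 mast cell and basophil genes 9 were higher and 3 lower, among the latter Gata2, which the stem cell factor list also holds. Their sums overlapped, at 1311 to 1524.5 CPM in LT-HSC and 1364 to 1609 CPM in MPP. Cpa3, the mast cell carboxypeptidase that early progenitors share, rose by 2.92 ± 0.36. Of 29 megakaryocyte and platelet genes 15 were lower and 3 higher, Pf4, Plek and Serpine2 (median -0.89), and sums ran from 4391 to 5326 CPM in LT-HSC and from 2038 to 2629 CPM in MPP. Mmrn1 belongs to this list and to that of LT-HSC identity, so both counts share it. Of 35 erythroid genes 7 were higher and 3 lower, with a median of 0.01, and 11 and 4 without WT LT-HSC 1. Erythroid sums overlapped but tended to be lower in MPP, at 3190.5 to 4985.5 CPM in LT-HSC and 2236.6 to 3475.5 CPM in MPP. Car1 and Car2, carbonic anhydrases of red cells, went opposite ways, Car1 up by 2.34 ± 0.55 (3.00 without WT LT-HSC 6) and Car2, at 1978 ± 397 CPM in LT-HSC and 979 ± 129.8 CPM in MPP, down by 1.01. Of 27 T and NK cell genes 3 were higher, Lck, Icos and Nkg7, and 1 lower, Klrb1c, and without WT LT-HSC 1 6 of 30 were higher and 1 lower. Of 18 stromal and endothelial genes 6 were lower, among them Tie1 (-1.60), an endothelial receptor that stem cells share, and 2 were higher, Pdgfrb and Pecam1.

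The Ahr-KO libraries gave the same measure in cells the wild-type fit did not use. Of 16206 genes tested there, 4903 (30.3%) were called between MPP and LT-HSC, 2391 higher (14.8%) and 2512 lower (15.5%), and 1721 (10.6%) differed by 2-fold or more, 811 up (5%) and 910 down (5.62%). Of the 2659 genes called in wild type and tested in Ahr-KO, 2592 (97.5%) had the same sign, against 76.5% of all 15748 genes tested in both. Genes called in both with the same sign numbered 1950, which is 71.9% of the wild-type calls and 39.8% of the Ahr-KO calls, and none was called with opposite signs. The LT-HSC identity list had 33 of 36 members lower and 1 higher in Ahr-KO (median -2.05), and the G2/M list had 60 of 73 higher (median 0.65). Flt3 differed by 2.72 in Ahr-KO against 3.04 in wild type, Procr by -1.25 against -1.87 and Cdkn1c by -2.99 against -3.38. The neutrophil list had 3 of 21 members higher and a median of -0.12 in Ahr-KO. Ltf differed by -0.52 ± 1.57 there against 6.51 ± 0.44 in wild type, and Camp by 0.62 ± 1.33 against 5.45 ± 0.47 (6.10 without WT LT-HSC 6). Neither gene was called in Ahr-KO (adjusted p = 0.844 and 0.773, edgeR), where the standard errors were large.

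**Figure D5:**
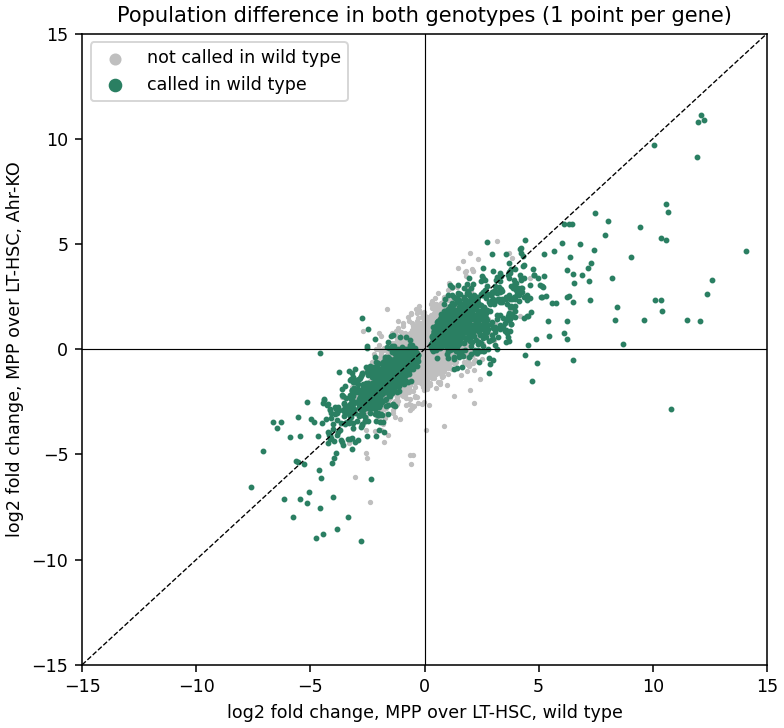
Log2 fold change of MPP over LT-HSC in wild type (horizontal axis) and in Ahr-KO (vertical axis), 1 point per gene for the 15748 genes tested in both, green where called in wild type, with the dashed line at equal values. Of the 2659 genes called in wild type, 2592 lie in the lower left or upper right part, where both values have the same sign.

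Whether the population difference itself differed between the genotypes was tested on all 20 libraries. None of 17416 genes was called by edgeR (0%), 1125 had an unadjusted p under 0.05 where 5% of the genes would be 871, and the smallest adjusted p was 0.296, shared by 13 genes, among them Reep2, Acap1, Sfxn4, Tbce and Faxc. Reep2, a shaper of the endoplasmic reticulum, fell by 1.37 in wild type and by 2.61 in Ahr-KO. Acap1, a trafficking protein of leukocytes, rose by 0.36 in wild type and by 1.05 in Ahr-KO. Sfxn4, of the sideroflexin family, and Tbce, a tubulin folding cofactor, were not called in wild type (0.03 and 0.21) and rose by 1.25 and 1.13 in Ahr-KO. Faxc was near 0 in wild-type MPP, at 0.0493 to 0.272 CPM against 2.28 to 5.31 CPM in LT-HSC, and fell in both genotypes. The difference of Ltf between genotypes was -7.03 ± 1.89 (adjusted p = 0.492, edgeR) and that of Camp was -4.83 ± 1.51 (adjusted p = 0.553, edgeR). That of Ahr was 0.87 ± 0.34 (adjusted p = 0.701, edgeR). DESeq2 called 51 genes in this comparison, among them Ltf, Reep2, Acap1, Sfxn4 and Tbce, and limma voom called 18, among them Acap1, Sfxn4 and Tbce. Genes of splicing kinases and nuclear long noncoding RNAs were higher in 9 of 23 tested members in wild type (median 0.46) and in 23 of 24 in Ahr-KO (median 0.96). Over all genes tested, 7.52% were called higher in wild type and 14.8% in Ahr-KO. Leaving out WT LT-HSC 1 gave 13 of 23 higher in wild type, against 15.6% of all genes in that fit. The difference between genotypes was called by edgeR in none of the members. DESeq2 and limma voom each called it in Clk1, Clk4, Ccnl1 and Jmjd6, named after their values were seen. Srsf3 and Ccnl2, a splicing factor and a cyclin of the spliceosome, rose by 0.47 ± 0.10 and 0.55 ± 0.13 in wild type, and by 0.49 and 1.29 in Ahr-KO.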

How the data were processed

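Long-term haematopoietic stem cells and multipotent progenitors were compared by sequencing of polyadenylated RNA in 5 wild-type libraries each. The authors deposited raw counts, 1 table per population, both with the same 49568 gene symbols. Tools named in the submitters' processing notes are Trimmomatic 0.36, STAR 2.5.2b, Subread 1.5.0p3 with featureCounts, and DESeq2 1.12.4, with the build GRCm38.p5. Neither their settings nor the annotation is given in the sources used here. Per the labels' protocols the kit does not mark strand, so reads of overlapping antisense genes cannot be told apart. The tables were joined by symbol. Dates stood in place of 26 symbols, which were kept, and 47114 symbols occur once in GENCODE M21 (GRCm38), the source of gene coordinates.

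The test was edgeR 4.0.16 in R 4.3.3 on the 10 libraries, with filterByExpr, TMM scaling, robust dispersions and the two-sided quasi-likelihood F test. P-values were adjusted by Benjamini and Hochberg over the genes tested, and genes under 0.05 were called. The standard error is the absolute log2 fold change over the root of F. The Ahr-KO libraries were fitted in the same way, and the difference of effects on all 20. Shares of counts were compared by exact permutation, adjusted over 3 shares.

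Members and the 38 gene lists were chosen with earlier results of these data known, so a list is described by counts and its median. Genes were named if on a short list of markers, among the 12 highest or 12 lowest called genes of at least 5 CPM, among up to 3 called members of a list with the smallest p in each direction, or among the 5 with the smallest p for the difference of effects. The limit of 5 CPM applied to the average over all 10 libraries, not to each group. Names outside the naming rule are marked where they carry values. Some genes that the rule names are not reported here.

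Replicate numbers 1, 4 and 5 occur in both groups, but the labels do not say what a number marks, so the main fit has no block. Deviations of same-numbered libraries from their group means correlated at r = -0.06, 0.04 and -0.09. Over all pairs of an LT-HSC and an MPP library r was -0.13 to 0.14. The LT-HSC mean includes WT LT-HSC 1, so these values cannot decide whether a number marks a shared animal. Alternatives were DESeq2 size factors, no filter, a filter of 5 CPM in 5 libraries, DESeq2 1.42.0, limma 3.58.1 voom with quality weights, a fit of all libraries, a test against 1.5-fold, 1 surrogate variable from sva 3.50.0, the replicate block and each library left out. On simulated counts of 16067 genes, the test recovered 2 of 50 genes changed 1.5-fold, 25 of 50 at 2-fold, 50 of 50 at 4-fold and 47 of 50 at 8-fold, with 3 wrong among 127 calls. The simulation changed no other genes and held no outlying library, while 16.9% of genes were called in the data. These rates therefore need not carry over.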

Additional observations from a re-analysis of the deposited data

Results flagged for a closer look

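In groups of 5 libraries, 382 sets of values (named genes, summed lists and shares of counts) were examined for a single library far from the rest of its group, and 56 were found. The cut gives 1 in 20 groups, or 19, only for independent values with a normal spread. Genes and lists overlap here and some genes were named after their values were seen, so 19 is not a chance level for them. WT LT-HSC 1 held 33 of them, WT MPP 3 held 8 and WT LT-HSC 5 held 5.

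WT LT-HSC 1 was low in the stem cell genes Slamf1 (21.7 CPM), Kit (624 CPM), Mecom (110.2 CPM) and Fgd5 (20.3 CPM). It was also low in Tgfbr3 (12.97 CPM), Grb10 (98.5 CPM), Foxo1 (21.8 CPM), Csf3r (46.7 CPM), Jam3 (5.12 CPM), Mki67 (79.4 CPM) and mt-Nd1 (283 CPM). The same library was high in the mitotic genes Aurka (157 CPM), Ccnb1 (339.6 CPM), Cdk1 (139 CPM), Plk1 (147 CPM) and Mad2l1 (97.8 CPM). It was also high in Cdkn1c (61.8 CPM), Tcf15 (35.3 CPM), Ltb (251 CPM), Apoe (922 CPM), F11r (169.8 CPM), Ndufa4 (279 CPM) and Lpcat2 (13.9 CPM). Its summed levels were high for the lists G2/M and mitosis (9131 CPM), dendritic cell (680.2 CPM), oxidative phosphorylation (15223 CPM), glycolysis (8989 CPM) and antigen presentation (11448 CPM). They were low for stromal and endothelial genes (329 CPM), TGF-beta and BMP (1198 CPM), imprinted genes (637 CPM) and mitochondrially encoded genes (3668 CPM), and its mitochondrial share was 0.386%.

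WT MPP 3 was high in the B cell and plasma cell genes Ly6d (67.6 CPM), Pou2af1 (63.8 CPM), Mzb1 (65.3 CPM) and Jchain (4042 CPM), in the summed B cell list (34009 CPM), in its immunoglobulin share (6.13%), in the macrophage gene Mrc1 (19.4 CPM) and in Efna1 (0.339 CPM). WT LT-HSC 5 was high in Jchain (47.7 CPM), Pou2af1 (1.48 CPM), the summed B cell list (992 CPM) and the immunoglobulin share (0.137%), and low in Clec1a (21.0 CPM). WT LT-HSC 6 was high in the eosinophil ribonucleases Ear2 (2.72 CPM) and Ear6 (1.20 CPM), WT LT-HSC 8 in Egr1 (234 CPM) and WT LT-HSC 4 in Slc2a3 (254 CPM), while WT LT-HSC 4 was low in Dlk1 (3.00 CPM). WT MPP 1 was high in Pdgfrb (130.3 CPM), Sox18 (1.996 CPM) and Hk3 (289 CPM), WT MPP 4 in the summed erythroid list (3476 CPM), and WT MPP 5 was low in Kit (627 CPM).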

How the results depend on the processing

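The 2711 calls between wild-type MPP and LT-HSC became 5973 with limma voom and quality weights, 5273 with 1 surrogate variable, 1086 when tested against 1.5-fold, and 4329 without WT LT-HSC 1 and 6 (a setting chosen after seeing the data). DESeq2 size factors gave 2716, no filter 2462, the fit of all libraries 3876 and the DESeq2 test 3537. Leaving out 1 library gave 2137 to 5184, the highest without WT LT-HSC 1 and at most 2555 without any other. The 1514 calls of at least 2-fold became 955 with the filter of 5 CPM in 5 libraries, which tests fewer genes, and 1382 to 1978 without 1 library. The difference of effects between genotypes had 0 calls in edgeR with each library left out in turn (range 0 to 0), 51 with DESeq2 and 18 with limma voom, of which the cause was not tested. The share of wild-type calls with the same sign in Ahr-KO was 97.5%. It was 98.3% with the stricter filter, 96.6% with DESeq2, 96.0% with limma voom, 98.3% against 1.5-fold, 93.5% with 1 surrogate variable and 96.6 to 98.5% without 1 library.

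On the libraries numbered 1, 4 and 5 alone, the replicate block gave 113 calls (113 of at least 2-fold, 78 up and 35 down, same-sign share 99.1%). The same libraries without the block gave 819 calls (781 of at least 2-fold, same-sign share 96.3%). That subset keeps WT LT-HSC 1 among fewer LT-HSC libraries. What part of the loss came with fewer libraries, with that library or with the block was not tested. In that subset Ly6a, which was never called, changed sign to -0.010 with the block. Shared numbers are not known to mark shared animals. Over all alternatives, values of named genes stayed on the same side of the threshold with the same sign in 2989 cases, lost the call in 258, gained it in 44 and changed sign in 1. Values under 1 CPM rest on few reads. The counts carry no molecular identifiers.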

Other observations

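Further lists showed small or mixed counts in the comparison of wild-type MPP with wild-type LT-HSC. Of 31 tested p53 target genes 5 were higher in MPP and 2 lower, with a median log2 difference of -0.09. Beside Cdkn1a and Btg2, Tigar, which lowers glycolytic flux, averaged 3.74 ± 1.118 CPM in LT-HSC and 8.02 ± 0.462 CPM in MPP (SD, n = 5 each). Ccng1, cyclin G1, averaged 137 ± 11.9 and 102 ± 12.3 CPM, and was called lower in MPP with all libraries (adjusted p = 0.0243, edgeR), a call kept only without WT LT-HSC 1 or WT MPP 3 and lost without any other 1 library (adjusted p up to 0.109, edgeR). Plk2 was lower as well. Targets of p53 thus went both ways. Without WT LT-HSC 1 the count was 9 higher and 4 lower, against 15.6% and 15.9% of all genes in that fit.

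Of 19 tested genes of DNA methylation and demethylation 4 were higher and 1 lower, with a median of 0.18, and without WT LT-HSC 1 7 were higher and 1 lower. Hells, a remodeller that helps to methylate repeats, measured 90.5, 71.8, 92.9, 82.2 and 79.97 CPM in LT-HSC and 94.1, 120.5, 110.2, 117 and 108 CPM in MPP. Tdg, a glycosylase of active demethylation, rose by 0.40 ± 0.09 log2, and Idh2, a mitochondrial isocitrate dehydrogenase, by 0.43 ± 0.11. Idh1 was the other member called higher, and Zbtb38, which binds methylated DNA, fell by 0.77, a call lost without WT MPP 4 (adjusted p = 0.0565, edgeR). Of 13 tested genes of the MYC network Mycn was lower and Mycl, low in every library, was higher, while Myc itself was not called, and without WT LT-HSC 1 2 members were higher and 3 lower. By gene type, 19.6% of 12240 protein-coding genes were called and 3.39% of 1979 processed pseudogenes, of which 53 were higher and 14 lower in MPP. Reads of a pseudogene can come from its parent gene, so these values are uncertain.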
